A study of Drosophila melanogaster with 6 samples.

Results

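The glycolytic enzyme genes of the fly were measured in ovaries on tiling arrays, 3 of them carrying the label uap56 and 3 the label vasa. They are Pgi, Pfk, Ald (now Ald1), Tpi, Gapdh1, Gapdh2, Pgk, Pglym78, Eno and PyK, 10 of the 13690 genes measured, and they carry the pathway from glucose 6-phosphate to pyruvate. They were taken by name from the transcript tables, where they hold 32 of 20765 transcript entries. The entry that stands for each gene was chosen by its mean intensity over the 6 arrays, the brightest being taken. Those means are therefore only described, while the difference between uap56 and vasa was not used in that choice. The genes were nevertheless proposed with results of these arrays known, and their direction is not independent evidence.

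Both groups are ovaries of Drosophila melanogaster from adults that had been given wet yeast paste, raised at 25 °C. UAP56, encoded by Hel25E, is an RNA helicase that acts in splicing and in the export of mRNA. Vasa is a helicase of germ cells. The labels name the gene alone and give no allele, strain or age. They number the replicates without saying whether these came from separate flies, so p-values measure only the spread between these arrays, which may be technical. Wild-type ovaries were not analysed here, and no difference tells which group moved. As a check of the labels, vas stood at 1698 ± 341 in uap56 and 297.3 ± 75.1 in vasa, and Hel25E at 1419 ± 326 in uap56 and 1610 ± 192 in vasa (SD, n = 3 each). The vas difference had an adjusted p of 0.00183 in limma. Hel25E overlapped between groups (log2 difference -0.20, adjusted p = 0.642), so its RNA gave no check of the uap56 label.

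Glycolysis breaks a sugar phosphate into triose phosphates in its upper part, at the cost of ATP, and oxidises these to pyruvate in its lower part, which yields ATP and NADH. Phosphofructokinase and pyruvate kinase catalyse steps that are in effect irreversible, and most of the other enzymes also serve gluconeogenesis in reverse. In the ovary, growing egg chambers take up sugar, and the same intermediates feed the pentose phosphate pathway, which supplies NADPH and ribose for nucleotides.

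All 10 genes had a higher mean intensity in uap56 than in vasa, by 1.23-fold (Ald1) to 2.23-fold (Pgk). Pgk, Tpi, Eno and PyK rose, meaning that their adjusted p from limma, over all genes, was under 0.05, and the other 6 did not pass. Among all genes 2.48% passed in this direction and 1.35% in the other. For 9 of the 10 genes every uap56 array lay above every vasa array, which held for 13.5% of all genes. Bright genes passed more often: of the 1604 genes at least as bright as Pfk, the dimmest of the 10, 6.92% passed toward uap56 and 23.6% had arrays that did not overlap in this direction. That brightness limit was chosen after the values were seen. The median log2 difference, uap56 minus vasa, was 0.58 over the 10 genes, 0.07 over those 1604 genes and 0.02 over all genes. After quantile normalization, which moved the calls over all genes to 376 higher and 344 lower against 340 and 185 without it, Gapdh1 passed as well.

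The number that passed depended on the fit and on single arrays. Without an intensity trend in the variance, and with limma's robust option also off, 0 of the 10 passed, as against 2 of all genes. The unadjusted p was then under 0.05 for 7 of the 10, and for 2088 of all 13690 genes. With the trend, 0 passed without uap56 replicate 2 or without vasa replicate 2, 1 (Pgk) without vasa replicate 3, and 2 (Eno and PyK) without uap56 replicate 3. Leaving out uap56 replicate 1 left 3, without Tpi, and leaving out vasa replicate 1 gave 5, with Gapdh1. The unadjusted p was under 0.05 for 8, 9, 7 and 10 of the genes in the fits with 0, 0, 1 and 2 calls, in that order. Over all 13690 genes it was so for 2081, 1895, 1855 and 2403. Calls over all genes fell with those of the 10, to 70, 88, 90 and 202 against 525 on all arrays. All 10 genes kept a positive difference in each of these fits. For the 9 whose groups did not overlap, no such fit could have changed the sign.

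**Figure D1:**
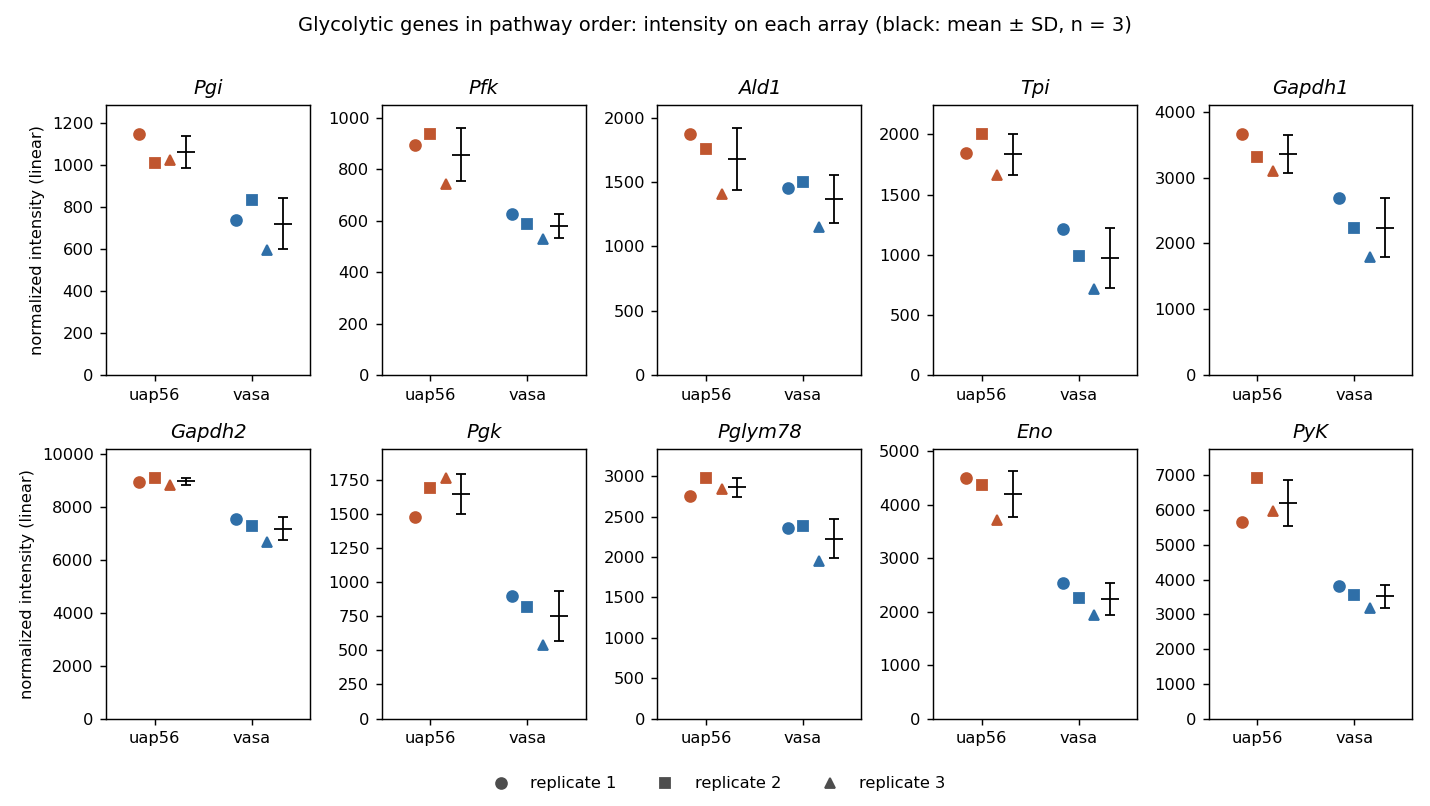
Normalized intensity (linear, y axis from 0, one scale per gene) of the 10 glycolytic genes on the 3 uap56 and 3 vasa arrays, with marker shape for the replicate number and black bars for mean ± SD. In 9 panels the uap56 points all lie above the vasa points, in the Ald1 panel the groups overlap, and vasa replicate 3 is the lowest of the 6 arrays in all 10.

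In upper glycolysis, Pgi encodes phosphoglucose isomerase, which turns glucose 6-phosphate into fructose 6-phosphate. Its intensity was 1148, 1010 and 1026 on the uap56 arrays, against 738, 833 and 594.5 on the vasa arrays. The groups did not overlap, with 1.21-fold between the lowest uap56 and the highest vasa array, but the log2 difference of 0.57 ± 0.16 (SE) did not pass (adjusted p = 0.0912 in limma). Pfk encodes phosphofructokinase, the committed step of the pathway and its chief point of control. It had 892, 936 and 742 in uap56, against 624, 587 and 529 in vasa. Again all uap56 arrays were above all vasa arrays, and the difference of 0.56 ± 0.15 did not pass (adjusted p = 0.0829).

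Ald1 encodes the aldolase that splits fructose 1,6-bisphosphate. It had 1871, 1759 and 1405 in uap56, against 1451, 1497 and 1154 in vasa. It was the gene among the 10 whose groups overlapped, since uap56 replicate 3 lay below vasa replicates 1 and 2. Its log2 difference of 0.29 had a 95% interval of -0.07 to 0.66 (adjusted p = 0.390), and was 0.18 without vasa replicate 3. Tpi encodes triose phosphate isomerase, which interconverts the products of aldolase. It rose to 1842, 2001 and 1660 in uap56, against 1210, 988 and 719 in vasa. The lowest uap56 array was 1.37-fold above the highest vasa array, and the log2 difference was 0.94 ± 0.19, a 1.92-fold change (adjusted p = 0.0329). Tpi passed in 1 of the 6 fits that left out an array, with adjusted p up to 0.124 in them.

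Lower glycolysis opens with glyceraldehyde 3-phosphate dehydrogenase, which has 2 genes here. Gapdh1 had 3661, 3316 and 3093 in uap56, against 2691, 2238 and 1792 in vasa. Gapdh2 had 8947, 9095 and 8806 in uap56, against 7544, 7282 and 6683 in vasa. Neither overlapped between groups and neither passed, with log2 differences of 0.60 ± 0.16 (adjusted p = 0.0813) and 0.32 ± 0.10 (adjusted p = 0.135). After quantile normalization the difference of Gapdh2 was 0.21. Gapdh2 was the least variable of the 10 in uap56, with an SD of 0.023 on the log2 scale. The log2 ratio of Gapdh1 to Gapdh2 within an array was -1.29, -1.46 and -1.51 in uap56, against -1.49, -1.70 and -1.90 in vasa. It differed by 0.28, with a 95% interval of -0.10 to 0.66. The exact permutation test (two-sided) gave p = 0.2, but 0.1 is the smallest it can give with 3 arrays a group, so it could not have passed. Which probes stand behind an entry is not known from the sources used here, and signal shared between these paralogous genes could not be separated.

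Pgk encodes phosphoglycerate kinase, the first enzyme of the pathway to make ATP, and had the largest difference of the 10. It rose to 1478, 1685 and 1764 in uap56, against 895, 817 and 541 in vasa. The lowest uap56 array was 1.65-fold above the highest vasa array. The log2 difference was 1.16 ± 0.20, with an adjusted p of 0.0175, and 4.23% of all genes had a larger one. Pglym78 encodes phosphoglycerate mutase and had 2754, 2983 and 2847 in uap56, against 2359, 2381 and 1946 in vasa. The groups did not overlap, but the difference of 0.37 ± 0.13 did not pass (adjusted p = 0.170).

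Eno encodes enolase, which makes phosphoenolpyruvate. It rose to 4505, 4374 and 3704 in uap56, against 2528, 2257 and 1935 in vasa. The difference was 0.91 ± 0.14, or 1.88-fold (adjusted p = 0.0141). PyK encodes pyruvate kinase, the last enzyme of glycolysis, which turns phosphoenolpyruvate into pyruvate and makes ATP. It rose to 5653, 6930 and 5982 in uap56, against 3826, 3542 and 3168 in vasa. The difference was 0.82 ± 0.13, or 1.76-fold (adjusted p = 0.0141). The gaps between the groups were wide for both, with the lowest uap56 array 1.47-fold above the highest vasa array for Eno and 1.48-fold for PyK. Pgk, Eno and PyK each passed in 3 of the 6 fits without an array, where their adjusted p reached 0.0755, 0.0676 and 0.0675.

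**Figure D2:**
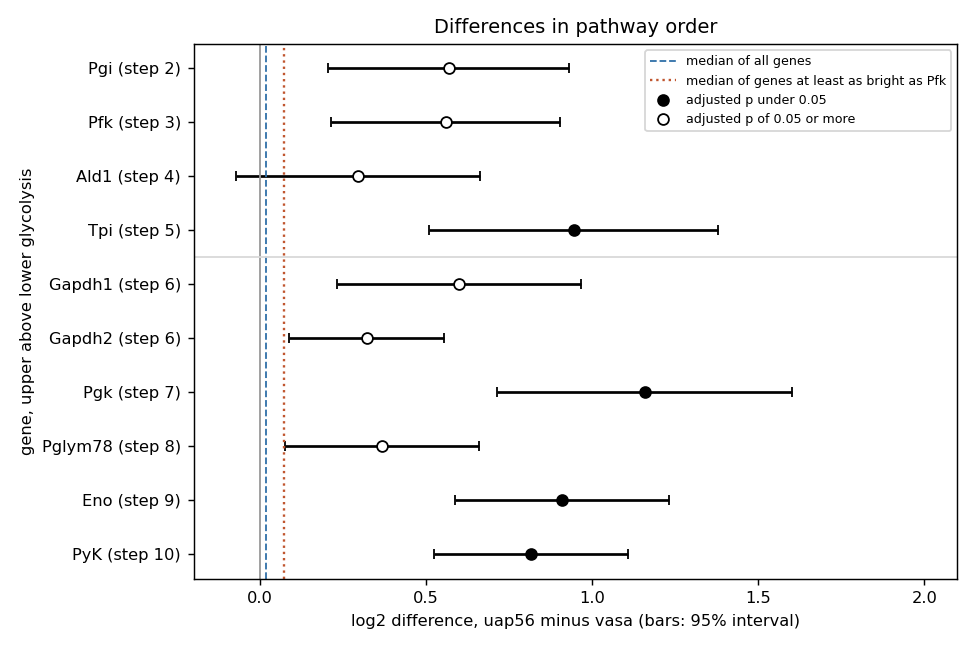
Log2 difference, uap56 minus vasa, of each glycolytic gene in pathway order with its 95% interval (x axis), upper glycolysis above the grey line, filled where the adjusted p was under 0.05. All 10 points lie right of the medians of all genes (0.02) and of the genes at least as bright as Pfk (0.07), and the ranges of upper and lower glycolysis overlap.

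Upper and lower glycolysis were set side by side to see whether the difference was shared along the pathway. In upper glycolysis 1 of 4 genes passed, with log2 differences between 0.29 and 0.94 and a median of 0.56. In lower glycolysis 3 of 6 passed, with 0.32 to 1.16 and a median of 0.71. The ranges overlapped over most of their length, and the difference of the medians was -0.14, upper minus lower. With each gene centred on its own mean over the 6 arrays, the median of the upper genes minus that of the lower genes was 0.02, -0.08 and -0.07 on the uap56 arrays, against 0.04, 0.18 and 0.10 on the vasa arrays. Within both parts, genes with small differences stood beside genes with large ones: Ald1 next to Tpi, and Pglym78 between Pgk and Eno. No test was made between the parts, since their members were chosen with results known.

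The genes shared their lowest array but not their order within uap56. Vasa replicate 3 was the lowest of the 6 arrays for 10 of the 10 genes, as it was for 18.9% of all genes and 26.5% of those at least as bright as Pfk. For the 9 genes without overlap the lowest array had to be a vasa array, so these shares are not a like measure. Within uap56 the lowest array was replicate 3 for 6 genes, replicate 1 for 3 and replicate 2 for 1, and Pgk and Eno ran in opposite order there. The median of the centred log2 values was 0.37, 0.35 and 0.21 on uap56 replicates 1 to 3, against -0.15, -0.27 and -0.55 on vasa replicates 1 to 3. These values also show that the spread within vasa was wide, and for 7 of the 10 genes the SD on the log2 scale was larger in vasa than in uap56. Without vasa replicate 3 the median difference of the 10 genes was 0.47. The arrays' median log2 intensities over all genes ranged from 6.95 to 7.05 in uap56 and from 6.96 to 7.05 in vasa, and centring on them gave a median difference of 0.59.

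Most genes had more than 1 transcript entry, and these gave nearly the same answer within a gene, except for Ald1. The 32 entries held 29 distinct sets of values, because some transcripts of Pgi, Ald1 and Pglym78 had identical intensities on every array. Entries of a gene share exons and are not independent. Fitted as entries of their own, 11 of the 32 passed toward uap56, as did 2.90% of all entries: the 3 of Tpi, 1 of Pgk, 5 of Eno and 2 of PyK. For 27 of the 32 the groups did not overlap, which held for 13.0% of all entries in this direction. Across the 5 Eno entries the log2 difference ran from 0.91 to 0.94, and across the 3 of Tpi from 0.93 to 0.94. Ald1, with 8 entries, had the widest range. Its brightest entry, with a mean of 1523 over the 6 arrays, had 0.29, and its dimmest pair, identical at a mean of 767, had 0.50 ± 0.15 (adjusted p = 0.0813 over all entries). That pair read 1001, 864 and 833 in uap56, against 623, 698 and 585 in vasa, without overlap. The Ald1 entry with a mean of 836 had 0.47, also without overlap, so whether Ald1 overlapped depended on the entry.

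**Figure D3:**
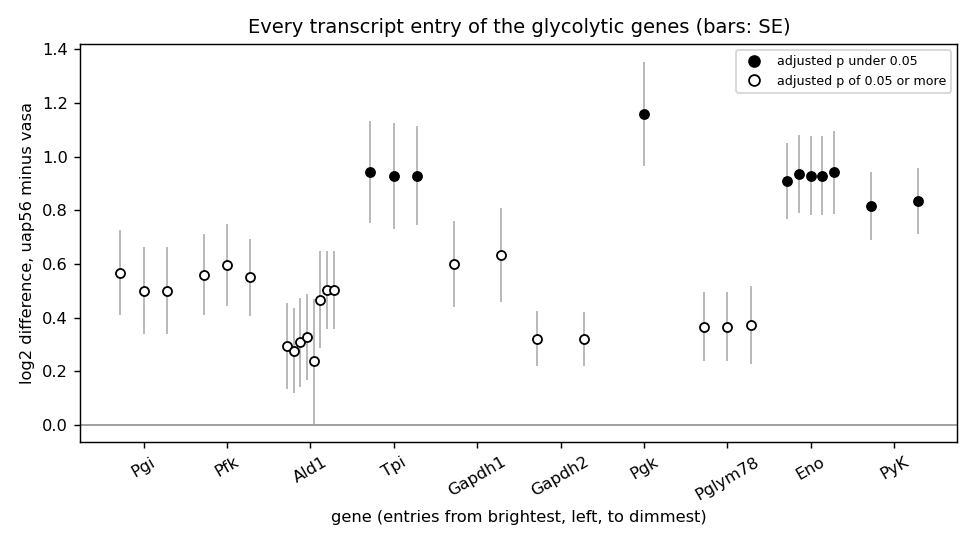
Log2 difference, uap56 minus vasa (y axis, bars for SE), of all 32 transcript entries of the 10 glycolytic genes, ordered within a gene from brightest to dimmest and filled where the adjusted p over all entries was under 0.05. Entries of a gene lie close together except for the 8 of Ald1, which spread most, from 0.24 to 0.50.

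By position, the genes lie on 4 chromosome arms: Pgk and Eno on 2L, Pgi, Pfk and Gapdh1 on 2R, Ald1, Tpi, Pglym78 and PyK on 3R, and Gapdh2 on X. In the order of genes on the reference assembly, 0 pairs of them are direct neighbours.

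The genes that bring sugar to the pathway were 13, of which 1 passed toward uap56 and 0 toward vasa (median 0.30). Over all genes 2.48% passed toward uap56 and 1.35% toward vasa, and the counts of this and the later lists stand beside these shares. The 13 had means over the 6 arrays from 39.6 to 1332. Their median difference was that of Hex-t1, a dim gene (mean 40.7, log2 difference 0.30 ± 0.46, SE). Tret1-1, a trehalose transporter gene, rose to 321, 648 and 593 in uap56, against 255, 188 and 182 in vasa (log2 difference 1.27, adjusted p = 0.0391). Hexokinase is the step before Pgi, and Hex-A stood at 1093, 1105 and 944 in uap56, against 1060, 1001 and 1233 in vasa, a difference of -0.07 with overlapping groups. Pgm1, for phosphoglucomutase, had 0.57, Tret1-2 had 0.73 and the sugar transporter gene sut1 had 0.54, and these 3 did not pass (adjusted p = 0.158, 0.202 and 0.207). Of 11 further isozymes and regulators of the same steps, 0 passed and 3 had a difference above 0. An unadjusted p under 0.05 was found for 2, Ald2 and CG2964, as for 2486 of all 13690 genes. Signals of the 11 were low, with means over the 6 arrays from 25.5 to 235.5. Ald2, the second aldolase gene, read 48.5, 58.1 and 41.7 in uap56, against 17.4, 16.3 and 39.6 in vasa (log2 difference 1.13, adjusted p = 0.261). CG2964 had -0.82 (adjusted p = 0.259) and Pfrx, the enzyme that makes and removes the activator of phosphofructokinase, -0.43 (adjusted p = 0.389).

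Among 17 genes of pyruvate metabolism and of the glycerol phosphate branch, 2 passed toward uap56 and 1 toward vasa (median -0.05). Men, the malic enzyme gene, whose product makes pyruvate and NADPH, rose to 1932, 2652 and 2808 in uap56, against 1039, 1049 and 976 in vasa (log2 difference 1.25, adjusted p = 0.00769), and passed in all 6 fits without an array. Gpdh1, for the glycerol 3-phosphate dehydrogenase that draws on the triose phosphates, rose to 1477, 1443 and 1479 in uap56, against 985, 1003 and 946 in vasa (0.58, adjusted p = 0.0351). Pepck1, a gene of gluconeogenesis, fell to 261, 123 and 55.9 in uap56, against 1425, 998 and 898 in vasa (-3.16, adjusted p = 0.0198). None of the 3 pyruvate dehydrogenase genes in the list passed: Pdha had -0.02 (adjusted p = 0.953), Pdhb 0.17 (adjusted p = 0.668) and muc, for the E2 subunit, -0.69 (adjusted p = 0.0833). Men-b, another malic enzyme gene, had -0.38 (adjusted p = 0.259) and Gpdh3 -0.41 (adjusted p = 0.508).

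In the pentose phosphate pathway, which branches off at glucose 6-phosphate and returns at the sugar and triose phosphates, 2 of 7 genes passed toward uap56 and 0 toward vasa, with a median of 0.70. CG8036, a transketolase gene, rose to 3446, 3861 and 3202 in uap56, against 2033, 1332 and 1759 in vasa (log2 difference 1.05, adjusted p = 0.0146). Rpe, for ribulose phosphate epimerase, had 0.74 (adjusted p = 0.0404). Taldo, for transaldolase, had 0.82, Pgls 0.70 and Pgd 0.58, all without overlap of the groups and none past the threshold (adjusted p = 0.0740, 0.121 and 0.119). Groups without overlap in this direction were found for 13.5% of all genes, and for 23.6% of the 1604 genes at least as bright as Pfk. Zw, the gene of the first enzyme, had -0.19, with overlapping arrays.

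Of 22 genes of the citric acid cycle, 1 passed in each direction (median 0.08). SdhD, a subunit of succinate dehydrogenase, rose to 475, 532 and 539 in uap56, against 351, 314 and 274 in vasa (log2 difference 0.73, adjusted p = 0.04435). mAcon1, for mitochondrial aconitase, fell to 1549, 1823 and 1561 in uap56, against 2560, 2272 and 2419 in vasa (-0.56, adjusted p = 0.0478). Mdh1 had 0.56 (adjusted p = 0.0694), ScsbetaA 0.52 (adjusted p = 0.173) and Idh3a -0.41 (adjusted p = 0.242). Among 13 regulators, 0 passed toward uap56 and 1 toward vasa (median -0.02). Myc, a transcription factor gene of growth, fell to 830, 641 and 598 in uap56, against 1204, 1208 and 1636 in vasa (-0.97, adjusted p = 0.0252). ERR, for the nuclear receptor that drives glycolytic genes in fly larvae, had 0.00, Mondo, a sugar sensor gene, -0.66 (adjusted p = 0.0922), Hph, the hydroxylase that marks the hypoxia factor for breakdown, 0.50 (adjusted p = 0.173) and bigmax 0.48 (adjusted p = 0.292).

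Calls in these lists, other than that of Men, were lost when 1 or more of the single arrays were left out. Of the 6 fits without an array, Tret1-1 and Myc passed in 2, Pepck1 and CG8036 in 3, Rpe in 1, and Gpdh1, SdhD and mAcon1 in 0. Without the intensity trend and the robust option none of these genes or Men passed, with adjusted p between 0.124 (Men) and 0.219 (mAcon1).

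**Figure D4:**
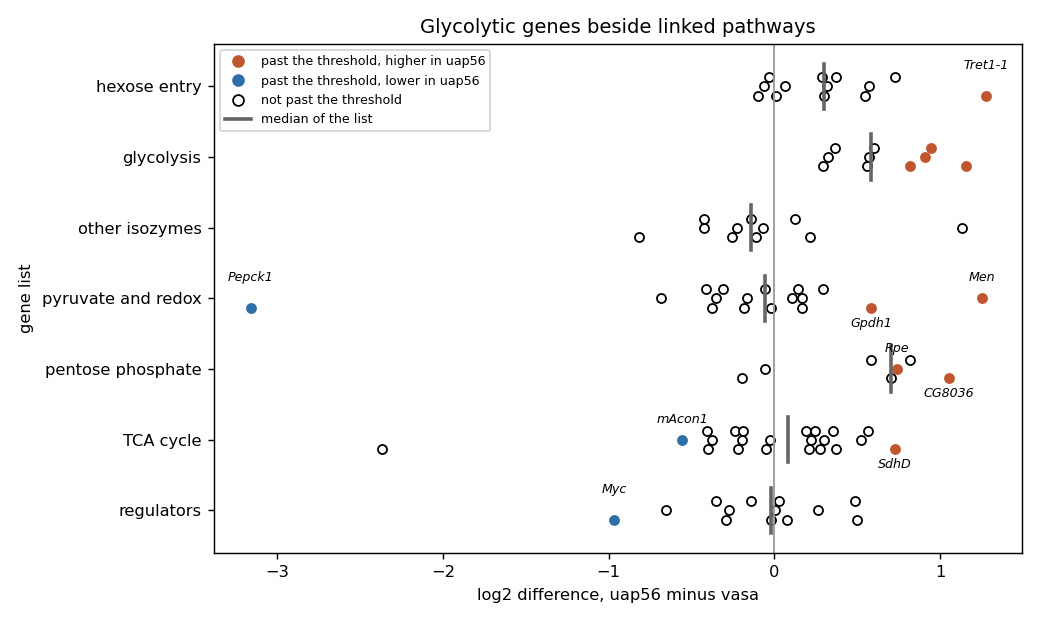
Log2 difference, uap56 minus vasa (x axis), of each measured gene in the glycolytic set and 6 linked lists, coloured where the adjusted p was under 0.05, with grey bars for list medians. The glycolytic median is 0.58, the pentose phosphate median 0.70 and the hexose entry median 0.30, while the other isozymes, pyruvate and redox, citric acid cycle and regulator lists have medians from -0.14 to 0.08.

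The ovary holds several cell types, and in RNA of a whole organ fewer cells of a type and less RNA per cell cannot be told apart. The named markers are the brightest of their lists, so their brightness does not test the labelled tissue. Among follicle-cell genes they were Cp36 (17632 ± 1920 in uap56 and 14357 ± 1517 in vasa), Vm26Aa, Yp1 and Vm26Ab. Among germline genes nanos and osk were brightest. Other markers were dim, such as slbo and grk, with means over the 6 arrays of 85.3 and 87.4. Of 12 follicle-cell markers 0 passed, with 1, Cp36, at an unadjusted p under 0.05. Over all genes 2486 of 13690 had such a p. Of 9 germline markers 1 passed toward uap56 and 0 toward vasa, 3 lay above 0 and the median was -0.48. In 1 of them the arrays were higher in uap56 without overlap, as in 13.5% of all genes. In 4 they were lower without overlap, a share that was not counted over all genes. The gene nanos rose (log2 difference 0.69, adjusted p = 0.0171). That call held in 2 of the 6 fits without an array, and not without the intensity trend and the robust option (adjusted p = 0.164). The next brightest, osk, otu and orb, had -0.53, -0.53 and -0.49 and did not pass. These, aub (-0.48) and nanos had an unadjusted p under 0.05.

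Glycolytic genes are strongly expressed in muscle, which also sheathes the ovary. TpnC73F was lower in uap56 (log2 difference -1.04) and had an unadjusted p under 0.05 in limma, as did 2486 of all 13690 genes. Of 14 muscle markers 0 passed, 1 had such a p, and 10 lay above 0 (median 0.19). Their summed intensity was 18369, 26740 and 24705 on uap56 replicates 1 to 3, against 23234, 23691 and 18332 on vasa replicates 1 to 3, and the groups overlapped. It was mostly that of sls, bt and Act57B, with Act79B next, whose log2 differences were 0.07, -0.13, 0.11 and 0.44. The sum therefore says little of the dimmer markers, whose log2 differences ran from -1.04 (TpnC73F) to 0.65 (Prm). Fat body markers, of which FASN1, apolpp, Lsp2 and Lsp1beta were the brightest, summed to 1519, 1328 and 862 in uap56, against 3415, 1549 and 2092 in vasa, with 0 of 8 past the threshold, 2 at an unadjusted p under 0.05 (FASN1 and Fbp2) and 0 above 0. Hemocyte markers, with srp, crq, Ppn and Pxn the brightest, summed to 2136, 2370 and 1939 in uap56, against 2446, 2499 and 2579 in vasa, with 0 of 8 past the threshold and 1 (Pxn) at an unadjusted p under 0.05. Both sums were lower in uap56 without overlap. No marker of these lists was at 0 on every array. The part of the germline, muscle, fat body and hemocyte values in the glycolytic differences was not tested.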

How the data were processed

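Per the labels, the authors deposited summarised and normalized expression values, 1 table per array, and these are read here as linear intensity. Not given in the sources used here are the normalization, the probes, the genome build and any aligner. The transposon tables were not used. Of 21158 entries, 393 were at 0 on all arrays and were left out, and log2 was taken without a pseudocount. Entries were named through RefSeq accessions (19234 matched) or the name in the file (1314), with letter case kept, on the Release 6 assembly, and 610 kept their own name. The lower-case names pfk and ald belong to other genes. The brightest entry stood for its gene.

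Differences (uap56 minus vasa) came from limma 3.58.1, run in R 4.3.3, by lmFit and a robust eBayes with an intensity trend (two-sided), with Benjamini-Hochberg adjustment over all 13690 genes. The fit without the trend also had the robust option off. The code was tested on simulated data, with differences planted in genes above the median intensity. The simulated spread was made to follow intensity as on these arrays, and no array was made to stand apart. The comparison of the fits therefore could not test whether the trend is the right choice. Of log2 differences of 1, the main fit found 56% and the fit without the trend 1%. Of log2 differences of 2 they found 93% and 72%. A fold is 2 to the power of the fitted log2 difference. The genes, the lists, the trend option and the rule for named genes were chosen with earlier results of these data known: the 10 genes, each listed gene past the threshold and up to 3 others with the smallest p, and the 4 brightest markers of a list. Hex-A, Hex-t1, Zw, ERR, Pdha and Pdhb, and markers beyond the 4 brightest of a list, were named besides, after their values were seen. Of the 3 shared replicate numbers, none had deviations that were alike (r = 2.88e-05, -0.000917 and -0.0281), so the main fit had no block; the fit with one is an alternative. No sequences were printed. The number of arrays limits the precision.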

Additional observations from a re-analysis of the deposited data

How the results depend on the processing

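The 10 differences stayed positive in all 13 alternatives that give a value per gene. For the 9 genes whose groups did not overlap, leaving out an array could not have changed the sign. Of 130 such values, 110 stayed on the same side of the threshold, 18 lost a call and 2, both of Gapdh1 (after quantile normalization and without vasa replicate 1), gained one. Only the 4 genes called in the main fit could lose a call. Tpi kept its call in 7 of the 13 alternatives, and Pgk, Eno and PyK in 9 each. The glycolytic genes past the threshold numbered 0 to 5 when 1 array was left out, and 0 without the intensity trend and the robust option. All genes past the threshold numbered 70 to 509 when 1 array was left out, and 2 without the trend and that option. They numbered 226 with the replicate number as a block, where the same 4 glycolytic genes passed. The labels do not say whether the numbers pair the arrays, and deviations that are not alike do not exclude it. The median difference of the 10 genes ran from 0.47 to 0.68, and upper minus lower from -0.209 (without vasa replicate 1) to -0.0933, when 1 array was left out. Tpi's adjusted p ranged from 0.0192 to 0.189 over the alternatives, Pgk's from 0.009 to 0.151, Eno's from 0.00755 to 0.146 and PyK's from 0.00665 to 0.153. Leaving out an array also leaves fewer samples; the cause of the lost calls was not otherwise tested.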
